A study of Mus musculus with 12 samples.

Results

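A set of 10 feedback and output genes of the ERK pathway was compared between totipotent potential stem (TPS) cells and extended pluripotent stem (EPS) cells. Of the 55401 genes in the files, the set comprised the Sprouty genes *Spry1*, *Spry2* and *Spry4*, the Sprouty-related *Spred1* and *Spred2*, the dual-specificity phosphatases *Dusp4*, *Dusp5* and *Dusp6*, and the ETS factors *Etv4* and *Etv5*. They were named by symbol as feedback regulators and transcriptional outputs of ERK, with no threshold on measured values but with earlier results of these data known, and all 10 were found and passed the filter on low counts. Polyadenylated RNA was sequenced from 3 TPS lines and 3 EPS lines of the mouse, each as 2 technical replicates, which gave 12 libraries of 13676051 to 21821707 counts. TPS cells were kept on feeder cells in the medium that the labels name VCED and the study's methods name CPEC, which holds 4 small molecules: CD1530, an agonist of RARγ, VPA, which inhibits histone deacetylases, EPZ004777, which inhibits DOT1L, and a CHIR compound that inhibits GSK3. EPS cells were kept in LCDM medium, also on feeder cells, so that medium and cell type cannot be told apart. The origin of the TPS lines is not given in the sources used here.

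ERK is the last kinase of a cascade that starts at receptors such as those for fibroblast growth factors (FGF) and passes through RAS, RAF and MEK. Active ERK switches on genes whose products dampen the same cascade, and genes of transcription factors that carry its signal on, so the RNA of such genes is often read as an output of the pathway. Sprouty and Spred proteins act upstream of ERK, at the level of RAS and RAF, while the phosphatases remove the activating phosphates from ERK itself. In mouse pluripotent cells, FGF4 acting through ERK is known for moving cells towards differentiation and primitive endoderm.

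Of the 10 genes, 1 passed the test between the cell types. *Dusp5*, which encodes a nuclear phosphatase of ERK, was 2.72-fold higher in TPS cells (95% confidence interval 1.69 to 4.36). No gene of the set was called lower in TPS cells by edgeR, DESeq2 or limma-voom, and the unadjusted p-value of edgeR was under 0.05 for none with a lower level. Over all 17468 genes tested by edgeR's quasi-likelihood test, 14.4% were called higher in TPS cells and 7.34% lower at an adjusted p-value of 0.05, so 1 of 10 and 0 of 10 were near the background. The median log2 fold change of the set was 0.11, beside 0.00 for all tested genes. For 2 of the 10 genes, *Dusp5* and *Spred2*, the lowest TPS line exceeded the highest EPS line, and for none was the order the opposite. Those patterns held for 23.6% and 19.1% of all tested genes. For the other 9 genes no difference between the cell types passed the test, and several of them varied widely between lines of 1 cell type.

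**Figure D1:**
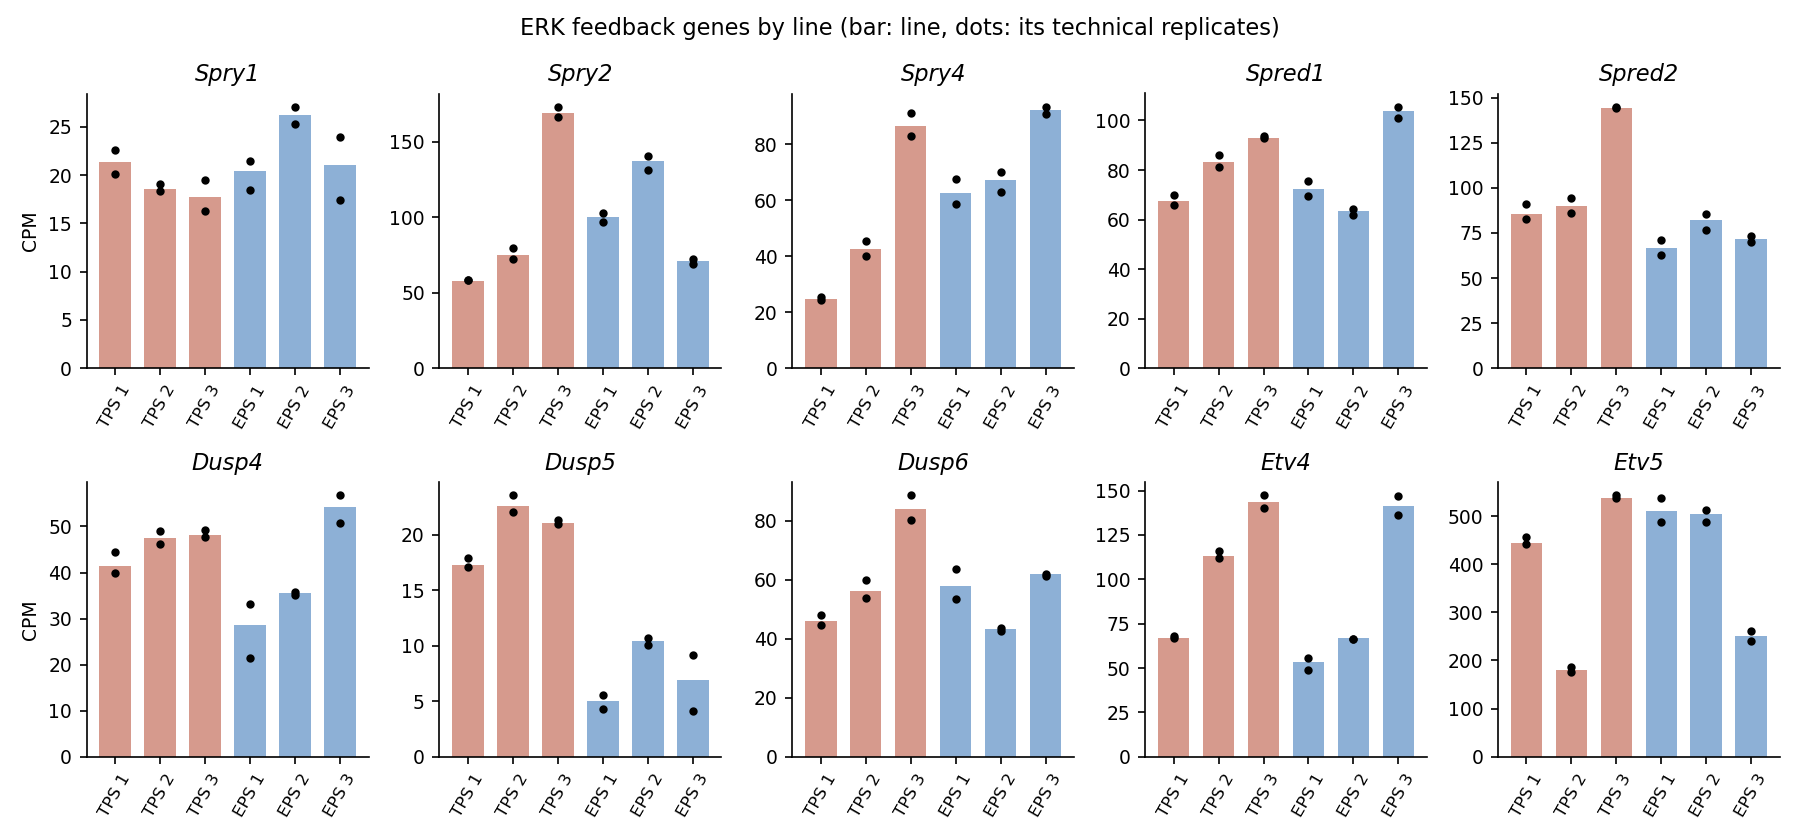
CPM (y axis) of the 10 ERK feedback genes in the 3 TPS lines and 3 EPS lines (x axis). CPM are reads divided by the total and the TMM normalization factor, and each panel has its own scale from 0. Bars give the line with its technical replicates summed, and dots give each technical replicate. The TMM factors of the dots were taken over the 12 libraries and those of the bars over the 6 lines, so their scales differ slightly. *Dusp5* lies at 17.3 CPM or more in every TPS line and at 10.4 CPM or less in every EPS line, while the bars of most other genes overlap between the cell types.

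The phosphatase genes were examined first because their products act on ERK directly. Levels are in CPM, which here are a line's reads on a gene divided by its total and its TMM normalization factor. CPM of single technical replicates use TMM factors taken over the 12 libraries instead of the 6 lines. *Dusp5* (ENSMUSG00000034765.6, chr19:53529109-53542431 on the plus strand of GRCm38) had 17.3, 22.6 and 21.1 CPM in TPS lines 1, 2 and 3. It had 5.06, 10.4 and 6.94 CPM in EPS lines 1, 2 and 3. All TPS lines were above all EPS lines, and the lowest TPS line stood well clear of the highest EPS line. The log2 fold change of *Dusp5* was 1.44 (SE 0.29, n = 3 lines in each group), with an adjusted p-value of 0.0145 by edgeR. With any 1 line left out, the log2 fold change of *Dusp5* stayed between 1.20 and 1.74 and its adjusted p-value by edgeR at or below 0.0486. The level was low in EPS cells, with 54 to 192 reads in each EPS library, and the technical replicates of EPS line 3 held 4.14 and 9.20 CPM. An antisense gene, AC137853.2, shares 547 exon bases with *Dusp5* but had 1 count in all libraries together.

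The sequence before the *Dusp5* start site is shown because this gene alone passed the test, and that of *Dusp6* because it is a phosphatase of the same family whose lines overlapped between the cell types. RefSeq promoter windows on GRCm38.p6 were at hand for 7 of the 10 genes, with a second start site for *Etv5*, and the 250 bases before each start were searched on both strands. The motifs were the ETS site CCGGAAG, the cAMP response element TGACGTCA, the AP-1 site TGANTCA, the TCF/LEF site CTTTGAT, the retinoic acid receptor half-site AGGTCA and the CArG box, the known binding sequence of serum response factor. Capitals mark the matches. For *Dusp5* the first 214 of the 250 bases searched are printed, chr19:53528895-53529108, since an annotated transcript begins before the RefSeq start. For *Dusp6* all 250 bases are printed, chr10:99262981-99263230, and both are read on the plus strand, 5′ to 3′.
*Dusp5*: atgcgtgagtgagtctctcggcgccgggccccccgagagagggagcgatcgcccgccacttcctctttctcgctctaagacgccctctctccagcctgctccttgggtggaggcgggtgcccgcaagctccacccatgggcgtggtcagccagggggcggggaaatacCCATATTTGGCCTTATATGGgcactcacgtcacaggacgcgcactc
*Dusp6*: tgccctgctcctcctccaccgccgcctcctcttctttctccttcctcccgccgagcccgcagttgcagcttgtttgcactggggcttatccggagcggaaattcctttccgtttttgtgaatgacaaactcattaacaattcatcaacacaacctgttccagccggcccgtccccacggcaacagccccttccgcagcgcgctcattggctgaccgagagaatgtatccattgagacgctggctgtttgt
*Dusp5* held 2 CArG boxes side by side, CCATATTTGG from 82 to 73 bases and CCTTATATGG from 72 to 63 bases before the RefSeq start, and they did not overlap another searched motif. A CArG box was present in 1.47% of the 32851 RefSeq windows of 250 bases. The other 7 windows of the set, those of *Spry1*, *Spry2*, *Spred1*, *Spred2*, *Dusp6* and *Etv5*, held none of the 6 motifs. The shares of all windows with the other motifs were 6.91% for the ETS site, 1.55% for the cAMP response element, 6.75% for AP-1, 3.21% for TCF/LEF and 14.0% for the half-site. The window of *Dusp5* was 64.0% G or C and that of *Dusp6* 56.4%, beside a median of 52.4%. A match of letters describes the window and does not show that a factor binds there.

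*Dusp6* (ENSMUSG00000019960.8, chr10:99263231-99267489) encodes the cytoplasmic phosphatase most often used as a reporter of ERK activity. It had 46.1, 56.2 and 84.0 CPM in TPS lines 1 to 3 and 58.1, 43.5 and 62.0 CPM in EPS lines 1 to 3. The groups overlapped, with the highest and the second lowest of the 6 lines both among TPS cells. Its log2 fold change was 0.19 (SE 0.25, adjusted p = 0.623 by edgeR), with a 95% confidence interval from −0.38 to 0.76. *Dusp4* (ENSMUSG00000031530.6, chr8:34807297-34819894), a nuclear phosphatase that acts on ERK and other MAP kinases, had 41.5, 47.4 and 48.2 CPM in TPS lines and 28.6, 35.6 and 54.3 CPM in EPS lines. The TPS lines lay close together and inside the range of the EPS lines. Its log2 fold change was 0.21 (SE 0.24, adjusted p = 0.561 by edgeR). The technical replicates of EPS line 1 differed for *Dusp4*, at 21.4 and 33.2 CPM.

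Within the phosphatases, the make-up of expression per exon length was compared, which allows levels of different genes to be set side by side. *Dusp5* made up 19.0%, 20.6% and 16.1% of the summed CPM per kilobase of *Dusp4*, *Dusp5* and *Dusp6* in TPS lines 1 to 3, and 6.59%, 13.6% and 6.62% in EPS lines 1 to 3. Its share was 18.6% ± 2.30 (SD) in TPS lines and 8.92% ± 4.02 in EPS lines, without overlap. These shares rest on the same line levels as the call of *Dusp5* above and are not separate support for it. An exact two-sided permutation test over the lines gave p = 0.1, the smallest value that 3 lines against 3 can give. The share of *Dusp6* was 43.7% ± 6.07 in TPS lines and 50.4% ± 8.20 in EPS lines (exact permutation p = 0.3). *Dusp4* took 37.8% ± 4.07 and 40.7% ± 6.58 (exact permutation p = 0.4).

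The Spred genes encode membrane-bound inhibitors that bind neurofibromin and keep RAS inactive. *Spred2* (ENSMUSG00000045671.17, chr11:19924375-20024026) had 85.6, 89.8 and 144 CPM in TPS lines 1 to 3 and 66.6, 82.3 and 71.6 CPM in EPS lines 1 to 3. Every TPS line was above every EPS line, although TPS line 1 exceeded EPS line 2 only slightly. The log2 fold change of *Spred2* was 0.53 (SE 0.22, adjusted p = 0.118 by edgeR), which did not pass the threshold. Without TPS line 3, the line with the highest value, the log2 fold change of *Spred2* was 0.25. *Spred1* (ENSMUSG00000027351.14, chr2:117121374-117182279) had 67.5, 83.3 and 93.0 CPM in TPS lines and 72.5, 63.3 and 103.9 CPM in EPS lines. The groups overlapped fully for *Spred1*, with a log2 fold change of 0.02 (SE 0.21, adjusted p = 0.947 by edgeR) and a 95% confidence interval from −0.47 to 0.52. *Spred1* made up 34.7% ± 4.09 (SD) of the Spred expression per kilobase in TPS lines and 42.2% ± 7.66 in EPS lines (exact permutation p = 0.3).

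**Figure D2:**
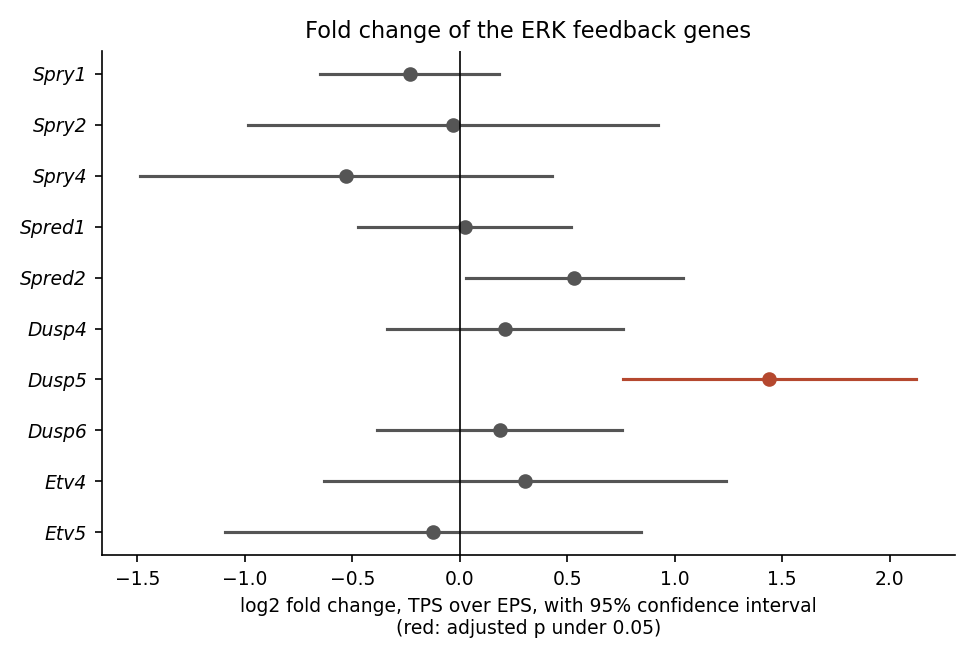
Log2 fold change of the 10 ERK feedback genes (y axis) in TPS cells over EPS cells (x axis) from edgeR's quasi-likelihood fit of 3 lines against 3, with 95% confidence intervals as bars. *Dusp5*, in red, passed the adjusted threshold at 1.44, and the estimates of the other 9 genes lie between −0.53 and 0.53.

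The Sprouty genes encode inhibitors of the step between receptor and RAS or RAF, and are among the classical targets of FGF signalling. *Spry4* (ENSMUSG00000024427.7, chr18:38586247-38601415) had 24.8, 42.6 and 86.5 CPM in TPS lines 1 to 3 and 62.5, 67.2 and 92.2 CPM in EPS lines 1 to 3. TPS lines 1 and 2 lay below all EPS lines, and TPS line 3 lay among them. The log2 fold change of *Spry4* was −0.53 (SE 0.41, adjusted p = 0.39 by edgeR). It depended on single lines: the log2 fold change of *Spry4* was −1.14 without TPS line 3 (adjusted p = 0.0536 by edgeR, not past the threshold), −0.20 without TPS line 1 and −0.35 without EPS line 3.

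*Spry2* (ENSMUSG00000022114.5, chr14:105891947-105896819) had 57.9, 75.2 and 169 CPM in TPS lines 1 to 3 and 100.3, 137 and 70.9 CPM in EPS lines 1 to 3. TPS line 3 was the highest of the 6 lines and TPS line 1 the lowest, and all EPS lines lay between them. The log2 fold change of *Spry2* was −0.03 (SE 0.41, adjusted p = 0.966 by edgeR). Its 95% confidence interval ran from −0.98 to 0.92, so that a change of nearly a factor of 2 in either direction was not excluded. *Spry1* (ENSMUSG00000037211.12, chr3:37639947-37644598) was the steadiest Sprouty gene, with 21.3, 18.5 and 17.8 CPM in TPS lines and 20.4, 26.3 and 21.1 CPM in EPS lines. Its log2 fold change was −0.23 (SE 0.18, adjusted p = 0.382 by edgeR), and TPS line 1 overlapped the EPS lines. The uncharacterized gene Gm42922 shares 710 exon bases with *Spry1* on the other strand and had 8 counts in all libraries.

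The balance among the Sprouty genes was not shown to differ between the cell types. *Spry2* made up most of their expression per kilobase, 72.0% ± 4.35 (SD) in TPS lines and 66.8% ± 9.49 in EPS lines (exact permutation p = 0.6). The share of *Spry4* was 12.9%, 17.5% and 17.3% in TPS lines 1 to 3 and 19.3%, 15.9% and 32.0% in EPS lines 1 to 3. Its mean was 15.9% ± 2.55 in TPS lines and 22.4% ± 8.49 in EPS lines (exact permutation p = 0.3), with EPS line 3 highest. *Spry1* took 5.8% in TPS line 3 and 18.2% in TPS line 1, a wider span than the 10.2% to 12.0% of the EPS lines.

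*Etv4* and *Etv5* encode ETS transcription factors of the PEA3 group, which are activated by ERK and carry its signal to target genes. *Etv5* (ENSMUSG00000013089.15, chr16:22381309-22439719) had 444 CPM in TPS line 1, 181 CPM in TPS line 2 and 539 CPM in TPS line 3. It had 511, 505 and 252 CPM in EPS lines 1 to 3. Within each cell type 1 line was low, TPS line 2 and EPS line 3, and the other 4 lines were higher than both. *Etv5* had a log2 fold change of −0.12 (SE 0.42, adjusted p = 0.858 by edgeR). *Etv4* (ENSMUSG00000017724.14, chr11:101769742-101785371) had 66.9, 113 and 143 CPM in TPS lines 1 to 3 and 53.2, 67.0 and 142 CPM in EPS lines 1 to 3. EPS line 3 was thus low for *Etv5* and high for *Etv4*. *Etv4* had a log2 fold change of 0.30 (SE 0.40, adjusted p = 0.626 by edgeR), with overlapping groups. That value depended on single lines: it was 0.02 without EPS line 1, 0.04 without TPS line 3 and 0.83 without EPS line 3.

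The make-up of the ETS pair varied more between lines of 1 cell type than between the means of the cell types. *Etv5* was 83.4%, 54.7% and 74.0% of the summed CPM per kilobase in TPS lines 1 to 3, and 87.9%, 85.1% and 57.3% in EPS lines 1 to 3. The means were 70.7% ± 14.6 (SD) and 76.8% ± 16.9 (exact permutation p = 0.5), and the difference between them turned from −6.09 to 1.91 percentage points without TPS line 2. The summed CPM per kilobase of both genes was 129 ± 48.5 in TPS lines and 131 ± 21.0 in EPS lines.

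Ordered by CPM per kilobase of exon, the set spanned more than a factor of 10 in both cell types, with *Etv5* first and *Spry2* second in each. In TPS lines the levels were 94.5 ± 45.2 (SD, n = 3) for *Etv5*, 48.3 ± 28.7 for *Spry2*, 34.7 ± 12.4 for *Etv4*, 23.1 ± 7.06 for *Spred2*, 19.8 ± 6.28 for *Dusp6* and 16.7 ± 1.34 for *Dusp4*. They were followed by 12.0 ± 1.90 for *Spred1*, 10.8 ± 6.67 for *Spry4*, 8.21 ± 1.11 for *Dusp5* and 6.61 ± 0.65 for *Spry1*. Of neighbours in this order, only *Dusp4* and *Spred1* were further apart than their summed SDs. In EPS lines the same scale gave 103 ± 36.1 for *Etv5*, 49.3 ± 15.9 for *Spry2*, 28.1 ± 15.3 for *Etv4*, 17.4 ± 3.11 for *Dusp6*, 15.9 ± 1.73 for *Spred2* and 15.6 ± 3.36 for *Spry4*. The lower end was 14.4 ± 4.83 for *Dusp4*, 11.8 ± 3.13 for *Spred1*, 7.77 ± 1.10 for *Spry1* and 3.02 ± 1.10 for *Dusp5*. Here *Etv5* was apart from *Spry2*, and *Spry1* from *Dusp5*, by more than their summed SDs, so that *Dusp5* was the lowest of the set in EPS lines and shared the low end with *Spry1* in TPS lines.

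The differences between lines of the same cell type were then tested, with the technical replicates as the spread, in a comparison added after the data had been seen. Such a test says that lines differ beyond the spread of their technical replicates, not why, and the sources used here do not say at which step those replicates were split. By edgeR, 7 of the 10 genes differed between the 3 TPS lines, all but *Spry1*, *Dusp4* and *Dusp5*, and all 10 differed between the 3 EPS lines. The shares over 15512 tested genes were 55.7% and 63.3%. The SD of log2(CPM + 1) between lines was described without a test: its median over the set was 0.42 in TPS lines and 0.41 in EPS lines, beside 0.18 and 0.23 over the 11405 genes with a mean of at least 5 CPM. In each cell type 8 of the 10 genes were above that median, but the genes are not independent of each other, since the same line was often the highest for several of them.

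*Spry4* spanned 3.49-fold from the lowest to the highest TPS line, more than 96.6% of those 11405 genes by its SD. *Etv5* spanned 2.98-fold and *Spry2* 2.92-fold, with SDs above those of 96.3% and 95.9% of genes. In EPS lines the widest member was *Etv4*, with a 2.66-fold span and an SD above that of 95.3% of genes. *Dusp5* spanned 1.31-fold in TPS lines, close to the middle of all genes, and 2.07-fold in EPS lines.

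TPS line 3 had the highest TPS level for 8 of the 10 genes, all but *Spry1* and *Dusp5*, and TPS line 1 had the lowest for 8, all but *Spry1* and *Etv5*. TPS line 3 was the highest TPS line for 29.7% of the genes with at least 5 CPM. TMM factors centre the lines on each other, so that share cannot tell whether a line had high values in general. In EPS cells the pattern was less uniform: EPS line 3 was highest for 5 genes, EPS line 2 for 4 and EPS line 1 for *Etv5*. EPS line 3 was the highest EPS line for 30.2% of genes. The technical replicates of a line agreed within a ratio of 1.19 for all but 3 of the genes, the exceptions being *Spry1* with 1.37, *Dusp4* with 1.55 and *Dusp5* with 2.22, each as the largest ratio in any line.

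**Figure D3:**
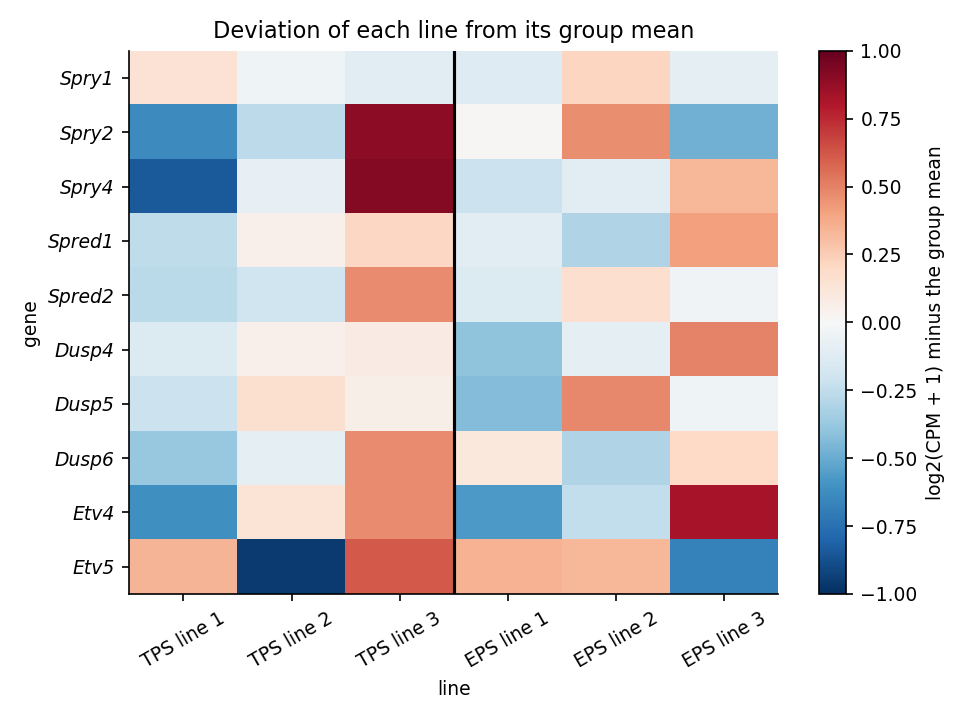
Deviation of each line (x axis) from the mean of its cell type in log2(CPM + 1), as color, for the 10 ERK feedback genes (y axis). TPS line 3 lies above its mean for 9 genes, all but *Spry1*, and the strong colors belong to *Spry4*, *Spry2*, *Etv4* and *Etv5*, the last with a low TPS line 2 and a low EPS line 3.

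The 5 genes most like *Dusp6* over the 6 lines, by Pearson correlation of log2(CPM + 1) among genes with a mean of at least 5 CPM, were *Cenps* (r = 0.996), *Pfn1* (0.967), *Gm7935* (0.963), *Ints5* (0.957) and *Champ1* (0.951). None of them was one of the other 9 feedback genes. With 6 lines and 11405 genes to choose from, such values describe these lines and were not tested.

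The rest of the pathway was described from lists written with earlier results of these data known. Among 15 ligands and receptors, 7 were called higher in TPS cells and 1 lower, beside 14.4% and 7.34% of all tested genes. The median log2 fold change of the 15 was 0.85. The gene called lower was *Fgf4*, the FGF ligand made by pluripotent cells. It had 134, 115 and 153 CPM in TPS lines 1 to 3 and 452, 354 and 252 CPM in EPS lines 1 to 3, all TPS lines below all EPS lines. For *Fgf4* the log2 fold change was −1.40 (SE 0.23, adjusted p = 0.00701 by edgeR). The 3 that rose most were *Fgf8*, another ligand, with a log2 fold change of 3.82 from an EPS level under 1 CPM, *Fgfr2*, an FGF receptor, with 2.73, and *Pdgfra*, a receptor for platelet-derived growth factor, with 2.45. *Fgfr2* had 8.70 to 14.2 CPM in TPS lines and 0.75 to 3.03 CPM in EPS lines. The number called higher was 4 without TPS line 1, TPS line 3, EPS line 1 or EPS line 2.

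In the cascade itself, 2 of 20 genes were called higher and 1 lower, with a median log2 fold change of 0.06. The shares over all tested genes were 14.4% and 7.34%, so both counts were near the background. *Ksr1*, a scaffold for RAF, MEK and ERK, rose by a log2 fold change of 1.83, with 27.1, 27.6 and 33.7 CPM in TPS lines and 8.68, 8.59 and 7.59 CPM in EPS lines. *Sos2*, an exchange factor for RAS, rose by 1.43, and *Nras*, one of the RAS genes, changed by −0.54. The number called higher was 1 without TPS line 1, TPS line 2, EPS line 1 or EPS line 2, and without any 1 line other than EPS line 2 no gene of the cascade was called lower by edgeR.

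Among 19 other feedback genes, 5 were called higher and 1 lower, beside 14.4% and 7.34% of all tested genes. The median log2 fold change of the 19 was 0.23. *Dusp9*, a cytoplasmic ERK phosphatase, had the largest change of them. It had 185, 294 and 183 CPM in TPS lines 1 to 3 and 32.9, 39.2 and 28.5 CPM in EPS lines 1 to 3, with every TPS line far above every EPS line. Its log2 fold change was 2.72 (SE 0.23, adjusted p = 0.00122 by edgeR). *Errfi1*, a feedback inhibitor of the EGF receptor, rose by a log2 fold change of 1.40, and *Dusp10*, a phosphatase with a preference for JNK and p38, by 1.22. *Dusp1*, an immediate early phosphatase, had 44.9 to 58.7 CPM in TPS lines and 114, 351 and 107 CPM in EPS lines 1 to 3, with a log2 fold change of −1.87 (SE 0.45, adjusted p = 0.0256 by edgeR). The number called higher was 9 with DESeq2, 8 without a filter on low counts and 2 with the line number as a block. It was 3 without any 1 line other than TPS line 2, and none was called lower by edgeR without any 1 TPS line.

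Immediate early genes are transcribed within minutes of ERK activation, without new protein. The list of 20 was broader than this definition, with *Ccnd1* among its genes. Of the 20, 3 were called higher and 0 lower by edgeR, beside 14.4% and 7.34% of all tested genes. The median log2 fold change of the 20 was −0.08. DESeq2 called 3 lower, and by edgeR the unadjusted p-value of 3 genes with a lower level, *Fos*, *Fosb* and *Ier2*, was under 0.05. The number called lower by edgeR was 2 without EPS line 1, 2 without EPS line 3, 1 without TPS line 3, 3 without a filter on low counts and 2 with technical replicate 2 of each line alone. The genes that rose were *Phlda1*, a growth factor response gene, with a log2 fold change of 2.07, *Myc* with 1.91 and *Ier5* with 1.74. EPS line 2 stood apart in this list, with a sum of 2127 CPM beside 1044 to 1415 CPM in the other 5 lines. *Fos*, chosen after its values were seen, had 380 CPM in EPS line 2, 70.1 CPM in EPS line 3 and 8.81 CPM in EPS line 1, and 9.55 to 20.9 CPM in TPS lines. Among the feedback genes, EPS line 2 was the highest EPS line for *Spry1*, *Spry2*, *Spred2* and *Dusp5*. In EPS line 3 the sum of immediate early genes was 761 CPM in one technical replicate and 1381 CPM in the other, the replicates that held 4.14 and 9.20 CPM of *Dusp5*. The part of these immediate early genes in the result for *Dusp5* was not tested. The log2 fold change of *Dusp5* was 1.74 without EPS line 2, 1.37 without EPS line 3 and 1.20 without EPS line 1.

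Among 13 substrates and downstream kinases of ERK, 2 were called higher and 2 lower, with a median log2 fold change of 0.16. The shares over all tested genes were 14.4% and 7.34%, so the number called higher was near the background. *Ets1*, an ETS factor phosphorylated by ERK, rose by a log2 fold change of 1.92 and *Rps6ka3*, which encodes the kinase RSK2, by 0.60. *Rps6ka2*, for RSK3, changed by −1.75 and *Rps6ka1*, for RSK1, by −0.55. The number called was 1 in each direction without any 1 TPS line or EPS line 1, and without EPS line 2 none was called higher by edgeR and 1 lower.

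**Figure D4:**
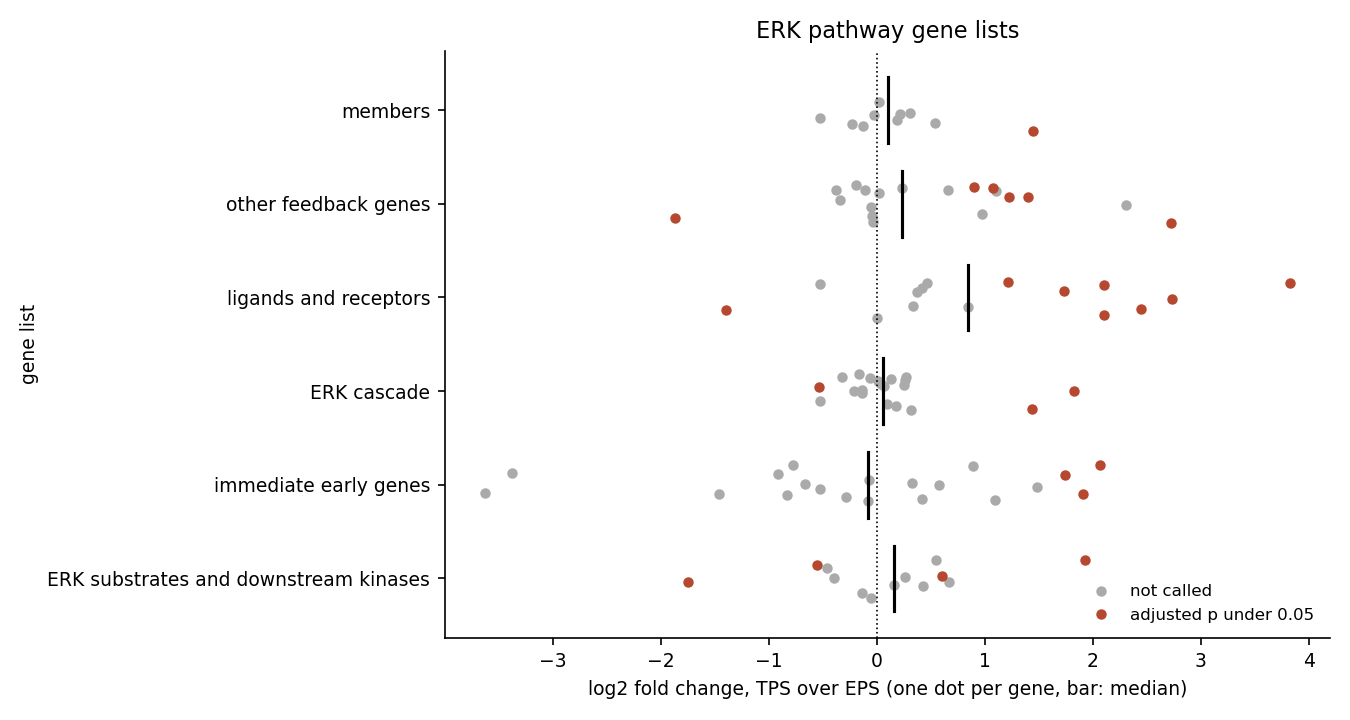
Log2 fold change in TPS cells over EPS cells (x axis) for each tested gene of the 10 feedback genes and of 5 other lists of the ERK pathway (y axis), with vertical bars for medians and red dots for genes past the adjusted threshold of edgeR. The feedback set is centred near 0 with *Dusp5* alone at 1.44, while the ligands and receptors have a median of 0.85 and 7 red dots on the right.

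Markers of cell types were compared because both cell types were grown on feeders and a bulk library cannot tell fewer cells of a type from less RNA per cell. Of 16 fibroblast markers, 10 were called higher in TPS cells, 0 were called lower by edgeR and all 16 had a positive log2 fold change, with a median of 2.07. Their summed level was 6087, 3415 and 3523 CPM in TPS lines 1 to 3 and 331, 1301 and 1381 CPM in EPS lines 1 to 3. The defining collagen genes *Col1a1* and *Col1a2* were present in every line, and *Fap* was at 0 in EPS line 1. Along with *Dusp5*, genes such as *Pdgfra* and *Fgfr2* moved in the direction of these markers, and the part of fibroblast RNA in those results was not tested. Within TPS cells, *Dusp5* was lowest in line 1, which had the most fibroblast RNA, and within EPS cells it was lowest in line 1, which had the least. The number of fibroblast markers called higher was 4 without TPS line 1 or EPS line 2 and 6 without TPS line 3.

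Markers of the labelled cells were as follows. Of 8 pluripotency markers, 5 were called lower in TPS cells and all 8 had a negative log2 fold change, with sums of 1998 to 2416 CPM in TPS lines and 4453 to 5264 CPM in EPS lines. All 7 markers of 2-cell embryos, *Zscan4c* among them, were called higher, with sums of 171 to 219 CPM in TPS lines and at most 0.098 CPM in EPS lines. Of 8 primitive endoderm markers 5 were called higher. They included *Pdgfra*, which was also counted above among the ligands and receptors, while *Gata4*, *Sox7* and *Foxa2* were not called. Of 7 tested trophectoderm markers 2 were called higher. *Cdx2* and *Gata3* of the trophectoderm list were under 10 CPM in every line. The keratin gene *Krt8* reached 243 CPM in TPS line 2, beside 4.84 and 32.7 CPM in TPS lines 1 and 3. The list was not uniform: among TPS lines *Krt18*, *Krt7* and *Gata3* were also highest in line 2, and *Cdx2*, *Eomes* and *Tfap2c* in line 3. The part of these cell states in the levels of the feedback genes was not tested.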

How the data were processed

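RNA-seq libraries of 3 TPS lines and 3 EPS lines, each with 2 technical replicates, were analysed. The authors trimmed the reads with fastp 0.19.7 and mapped them to the mouse genome (mm10, GRCm38.p6) with STAR 2.7.3a, and the deposited values were raw counts per gene. The counting tool, its annotation and its use of strand are not given in the sources used here, so reads of overlapping genes could have been shared. Of 55401 identifiers, 55141 matched GENCODE M21 without their version. Counts of technical replicates were summed, which gave 29877215 to 38466294 counts per line, and the 2 cell types were compared with edgeR 4.0.16 (R 4.3.3): TMM factors, filterByExpr with a minimum count of 10, the quasi-likelihood test and Benjamini-Hochberg adjustment over the 17468 genes tested, with a threshold of 0.05. Standard errors were the log2 fold change divided by the square root of F. The labels give line numbers but not whether lines were derived independently, so p-values measure the spread between these lines. Family shares used CPM per kilobase of merged exons and exact permutation over lines. The members and lists were chosen with earlier results of these data known. The named genes were the members, and of each other pathway list in each direction up to 3 called genes, those with the largest changes. Outside this rule, *Fos*, *Fosb* and *Ier2* were named for their unadjusted p-values, and the levels of *Fos* were given after they had been seen. On simulated counts with 1 common dispersion, drawn for the TPS and EPS lines over 17162 tested genes, 78.6% of genes changed 4-fold and 3.03% of those changed 2-fold were called, and 0 unchanged genes. DESeq2 1.42.0, limma-voom (limma 3.58.1), other factors and filters, either technical replicate, all 12 libraries, a replicate block and leaving out each line were the alternatives. No technical replicates agreed within sampling noise: chi-square divided by its degrees of freedom was 2.63 to 3.88 except 9.76 in EPS line 1 and 22.7 in EPS line 3.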

Additional observations from a re-analysis of the deposited data

How the results depend on the processing

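*Dusp5* kept its direction and its call under all alternatives at the threshold of 0.05, with a log2 fold change of 1.20 to 1.74 and an adjusted p-value of 4.72e-05 (DESeq2) to 0.0486 (edgeR without TPS line 3). At a threshold of 0.01 its log2 fold change of 1.44 was not called, and 0 of the 10 genes were called higher by edgeR. With the 12 libraries as separate samples, *Spred2* was also called (log2 fold change 0.55, adjusted p = 0.00883 by edgeR), so that 2 genes were called higher. That fit counts technical replicates of a line as independent samples, which they are not. The sign was not settled for 5 genes that were not called. For *Spry2* the log2 fold change was 0.04 with upper quartile factors, 0.12 with library size alone, 0.06 with the stricter filter and 0.03 with technical replicate 1 of each line alone. For *Spred1* it was 0.00 without a filter and −0.01 with technical replicate 1 alone, and for *Etv5* 0.03 with library size alone. Leaving out each line in turn gave −0.63 to 0.25 for *Spry2*, −0.14 to 0.25 for *Spred1*, 0.00 to 0.49 for *Dusp4*, −0.10 to 0.36 for *Dusp6* and −0.44 to 0.21 for *Etv5*. The differences in family share, in percentage points, ranged from −9.75 to −1.69 for *Spry4*, −10.2 to −1.98 for *Dusp6*, −15.8 to 1.91 for *Etv5* and −11.4 to −3.75 for *Spred1*. The cause was not tested. Library size alone moved the median log2 fold change of all genes from 0.00 to 0.14.

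Over all tested genes, lines with the same number did not deviate together between the cell types (r = 0.024, −0.116 and 0.042). The labels do not say whether equal numbers mark a shared origin, and such correlations over 3 lines a group cannot decide it. With the line number as a replicate block, 1714 genes were called higher and 721 lower, beside 2509 and 1282 without it, and *Dusp5* had a log2 fold change of 1.49 (adjusted p = 0.0219 by edgeR). Under that replicate block the log2 fold changes of the other genes were −0.23 for *Spry1*, −0.16 for *Spry2*, −0.69 for *Spry4*, 0.04 for *Spred1*, 0.50 for *Spred2*, 0.26 for *Dusp4*, 0.16 for *Dusp6*, 0.37 for *Etv4* and −0.20 for *Etv5*, none of them called. Ligands and receptors called higher numbered 3 with the stricter filter and 4 with the replicate block, beside 7. Over all genes, 4067 were called higher and 3610 lower with the 12 libraries as separate samples, 873 and 258 at a threshold of 0.01, and 2985 and 750 with library size alone. With 3 lines a group, the 95% confidence intervals of the log2 fold change were wide, from −0.98 to 0.92 for *Spry2* and from −1.09 to 0.84 for *Etv5*. *Dusp5* is the least abundant member per kilobase in EPS cells, with 54 reads in its poorest library.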
